A study of Mus musculus with 12 samples.

Results

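The receptors for the cytokines of the common gamma chain family were followed in mouse splenic CD8+ T cells given an antibody to CD3, IFN-4a, both or neither. The family was taken as 7 genes, Il2ra, Il2rb, Il2rg, Il4ra, Il7r, Il15ra and Il21r, and a gene's values were those of array rows to which the platform annotation gave exactly 1 gene symbol. By that rule 6 of the 7 genes were measured, each by 1 row, out of 22180 genes in all. Il2rg, the shared chain itself, had no such row and was not analysed here.

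The cells were CD8+ lymphocytes from spleens of C57BL/6 mice, isolated by negative selection and kept for 6 h at 37 °C. The 4 groups of 3 arrays were cells in PBS alone, cells in PBS with IFN-4a, cells with anti-CD3 antibody alone, and cells with anti-CD3 and IFN-4a together. Anti-CD3 engages the T cell receptor complex, and the series title names type I interferon as the subject. No group carried a genetic change. The 2 groups without the antibody are called resting and the 2 groups with it stimulated. The labels name no animal, day or batch, so whether a replicate array stands for a separate culture is not known, and p-values speak only of the variation among these 12 arrays.

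Cytokine receptors of this family each pair the common gamma chain with a private chain, and some add a shared beta chain. The IL-2 receptor is built from Il2ra, Il2rb and the common chain, the IL-15 receptor from Il15ra, Il2rb and the common chain, and the receptors for IL-4, IL-7 and IL-21 from Il4ra, Il7r or Il21r with the common chain. The chains bind the kinases JAK1 and JAK3, which activate STAT proteins, mainly STAT5 for IL-2, IL-7 and IL-15, STAT6 for IL-4 and STAT3 for IL-21. In CD8+ T cells IL-7 and IL-15 are known for survival of naive and memory cells, and IL-2 for expansion after antigen.

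Values had been deposited as logarithms, read here as log2, after each row was centred on its median over the 12 arrays. A value therefore shows how far an array stood from the middle array for that gene, and it holds no absolute level and no order of levels between genes. No source used here states the base of the logarithm. If it was the natural log, every fold below would be larger. Arrays correlated at 0.608 to 0.801 within a group and at most at 0.527 between groups, and no array stood apart from its group. The treatments showed in their check genes. Ifit1, an interferon-induced gene, was higher by 5.16 ± 0.07 (log2 ± SE, n = 3 against 3) with IFN-4a in resting cells and by 3.88 ± 0.07 in stimulated cells. Cd69, an early activation marker, was higher by 2.02 ± 0.09 with anti-CD3 alone. It was also higher by 1.16 ± 0.09 with IFN-4a in resting cells (limma adjusted p = 1.62e-06), so its rise was not specific to anti-CD3.

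The promoters of 3 members are shown because these members carry the main contrasts in the values: Il15ra was higher with anti-CD3 and, in resting cells, with IFN-4a, Il7r was lower with anti-CD3, and Il2ra had the widest range. Each sequence is a RefSeq window on GRCm38.p6, from 250 bases before to 50 after the annotated start of transcription, read 5′ to 3′ on the gene's strand, with motif matches in capitals.
Il15ra, second start, chr2:11705462-11705761, plus strand: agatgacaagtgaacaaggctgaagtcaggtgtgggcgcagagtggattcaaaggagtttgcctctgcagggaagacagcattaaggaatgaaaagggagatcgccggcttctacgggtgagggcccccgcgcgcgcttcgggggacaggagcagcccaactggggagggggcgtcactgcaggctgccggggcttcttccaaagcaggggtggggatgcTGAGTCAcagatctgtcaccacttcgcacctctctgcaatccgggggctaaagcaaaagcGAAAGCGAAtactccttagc
Il7r, chr15:9529827-9530126, minus strand: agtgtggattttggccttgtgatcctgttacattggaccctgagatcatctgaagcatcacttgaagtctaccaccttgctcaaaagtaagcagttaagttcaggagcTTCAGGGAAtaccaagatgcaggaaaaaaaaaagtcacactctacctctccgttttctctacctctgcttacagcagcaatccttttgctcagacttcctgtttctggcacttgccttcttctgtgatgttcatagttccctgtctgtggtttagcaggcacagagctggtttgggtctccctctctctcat
Il2ra, chr2:11642542-11642841, plus strand: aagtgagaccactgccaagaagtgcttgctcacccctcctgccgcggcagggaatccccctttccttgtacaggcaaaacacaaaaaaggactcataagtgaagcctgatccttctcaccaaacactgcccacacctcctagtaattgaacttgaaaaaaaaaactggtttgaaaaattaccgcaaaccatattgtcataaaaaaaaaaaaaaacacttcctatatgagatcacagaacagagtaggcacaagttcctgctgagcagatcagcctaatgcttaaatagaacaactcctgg
Windows were found for 6 of the 7 genes, 7 windows in all, since Il15ra had 2 annotated starts, and Il2rb had none. Both strands were searched for a STAT site, TTCNNNGAA, an interferon response element core, GAAANNGAA, an NF-kappaB site, GGANTTTCC, and an AP-1 site, TGANTCA. In the second Il15ra window, TGAGTCA began 30 bases before the start of transcription, as an AP-1 match on both strands, and GAAAGCGAA lay downstream of it at position 31 as an interferon response element match. The Il7r window held the STAT match TTCAGGGAA, whose first base lay 142 bases before the start, and the first Il15ra window held TTCCATTTC, an interferon response element match on the opposite strand. The Il2ra window printed above held no match to these 4 strings, and the matches did not overlap each other. Sites of the same factors with other spellings were not searched for, so the Il2ra window is not shown to lack them. Among the 32851 windows of this length in the table, 8.30% held the STAT letters, 8.56% the interferon letters, 1.25% the NF-kappaB letters and 7.81% the AP-1 letters. A match is a string of letters and does not show that a factor bound there.

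IL-2 and IL-15 share Il2rb and the common chain and differ in the alpha chain, and both alpha chains rose with anti-CD3. Il2ra, the alpha chain that gives the IL-2 receptor its high affinity, read -2.44, -2.58 and -2.61 in PBS cells and -1.32, -1.40 and -1.99 in cells with IFN-4a alone. Its values were 1.36, 1.37 and 1.41 with anti-CD3 alone and 1.47, 1.32 and 1.36 with both agents. All 3 PBS arrays were the lowest, the 3 arrays with IFN-4a alone came next without overlap, and the 6 stimulated arrays lay together at the top. In RNA from a whole cell sample, here and below, fewer cells of a type and less RNA per cell cannot be told apart. Anti-CD3 alone raised Il2ra by 3.93 on the log2 scale (95% interval 3.65 to 4.21), which is 15.2-fold (adjusted p = 4.19e-11). IFN-4a alone raised it by 0.98 (0.70 to 1.26), or 1.97-fold (adjusted p = 0.000212). In stimulated cells the change with IFN-4a was 0.01 (-0.27 to 0.29, adjusted p = 0.991). The difference between the IFN-4a changes in stimulated and resting cells was tested as an interaction and came to -0.97 (-1.37 to -0.58, adjusted p = 0.0213). Quantile normalization ended both the IFN-4a call in resting cells (0.20, adjusted p = 0.306) and the interaction call (-0.40, adjusted p = 0.413). Here and below it was applied to values already centred by row. It thus made the distribution of deviations alike between arrays, and it is not the usual normalization of signal. The interaction call also ended when any one of 9 arrays was left out, at adjusted p of up to 0.0682 (-0.89, without the second array of IFN-4a alone). The 9 were the second and the third PBS arrays, the first and second of IFN-4a alone, all 3 of anti-CD3 alone, and the second and the third with both agents.

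Il15ra, which holds IL-15 and can present it to neighbouring cells, read -1.19, -1.08 and -1.55 in PBS cells and -0.74, -0.85 and -0.96 with IFN-4a alone. It read 0.75, 0.84 and 0.74 with anti-CD3 alone and 1.31, 1.04 and 0.97 with both agents. The 4 groups formed 4 steps without overlap, PBS lowest and both agents highest. Anti-CD3 alone raised it by 2.05 (1.80 to 2.29), or 4.13-fold (adjusted p = 6.83e-09), and both agents against PBS by 2.38, or 5.20-fold (adjusted p = 1.28e-09). IFN-4a raised it by 0.42 (0.18 to 0.67), or 1.34-fold, in resting cells (adjusted p = 0.0271). In stimulated cells the IFN-4a change was 0.33 (0.09 to 0.58), which did not pass after adjustment (adjusted p = 0.153), and the interaction was -0.09 (-0.43 to 0.26, adjusted p = 0.902). Quantile normalization ended the resting-cell call (0.21, adjusted p = 0.156), and so did leaving out the first or second array of IFN-4a alone (0.37, adjusted p = 0.103, and 0.42, adjusted p = 0.0757) or the third PBS array (0.28, adjusted p = 0.0974).

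Il2rb, the beta chain that the IL-2 and IL-15 receptors share, read between -0.14 and 0.09 on all 12 arrays, and the 4 group means were -0.03 (PBS), -0.08 (IFN-4a alone), -0.01 (anti-CD3 alone) and 0.04 (both). Anti-CD3 alone gave a change of 0.02 (-0.10 to 0.14, adjusted p = 0.838) and IFN-4a in resting cells one of -0.05 (-0.17 to 0.07, adjusted p = 0.635). Anti-CD3 in the presence of IFN-4a gave 0.12 (-0.01 to 0.24, adjusted p = 0.179), where the groups did not overlap. In limma Il2rb passed in 0 of the 7 comparisons, and in 0 of 7 at an unadjusted threshold of 0.05 as well.

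**Figure D1:**
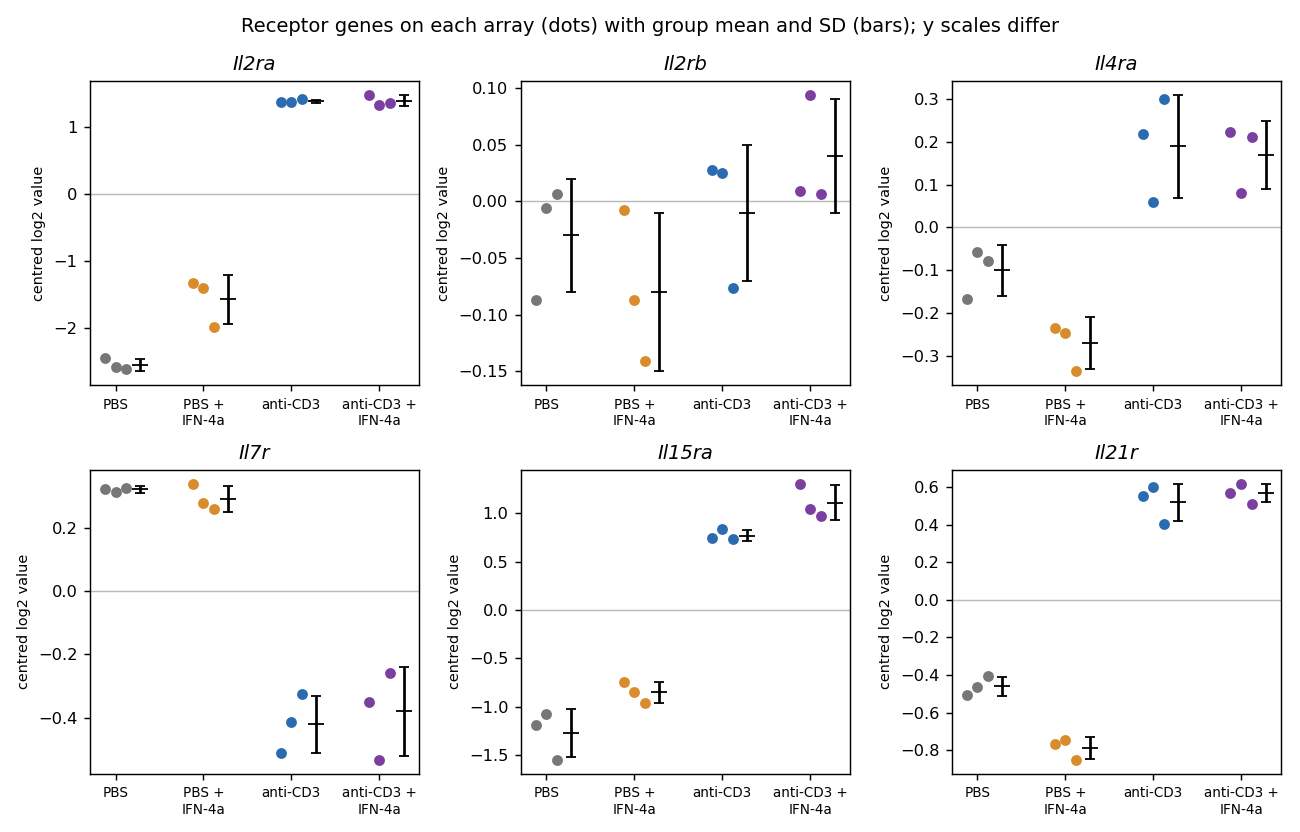
Row-centred log2 value of each measured receptor gene on each of the 12 arrays, by group, with the group mean. Il2ra and Il15ra climbed from PBS to the stimulated groups, Il7r stood lower in both stimulated groups, and the Il2rb values stayed between -0.14 and 0.09.

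Il7r, the chain that gives naive and memory T cells their response to IL-7, was the 1 measured member that fell with anti-CD3. It read 0.32, 0.31 and 0.33 in PBS cells and 0.34, 0.28 and 0.26 with IFN-4a alone, against -0.51, -0.41 and -0.33 with anti-CD3 alone and -0.35, -0.53 and -0.26 with both. Every resting array lay above every stimulated array. The change with anti-CD3 alone was -0.74 (-0.89 to -0.58), a level 1.67-fold lower (adjusted p = 1.57e-06). In the presence of IFN-4a it was -0.67 (-0.82 to -0.52), or 1.59-fold lower (adjusted p = 4.39e-06). IFN-4a gave -0.03 (-0.18 to 0.12) in resting cells and 0.04 (-0.12 to 0.19) in stimulated cells, neither past the test (adjusted p = 0.837 and 0.874).

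Il21r and Il4ra, whose genes stand next to each other on chromosome 7 with no annotated gene starting between them, both rose with anti-CD3. Il21r, which signals mainly through STAT3, read -0.50, -0.46 and -0.40 in PBS cells, -0.77, -0.74 and -0.85 with IFN-4a alone, 0.55, 0.60 and 0.40 with anti-CD3 alone, and 0.57, 0.62 and 0.51 with both. IFN-4a alone gave the lowest group, and the 2 stimulated groups overlapped. Anti-CD3 raised Il21r by 0.98 (0.84 to 1.11), or 1.97-fold, without IFN-4a (adjusted p = 2.77e-08) and by 1.36 (1.22 to 1.49), or 2.56-fold, with it (adjusted p = 1.03e-09). IFN-4a lowered it in resting cells by 0.33 on the log2 scale, with a change of -0.33 (-0.47 to -0.20), or 1.26-fold (adjusted p = 0.00319). In stimulated cells the change was 0.05 (-0.09 to 0.18, adjusted p = 0.783). The interaction of 0.38 (0.19 to 0.57) missed the threshold (adjusted p = 0.0682), and passed where only genes read at 8 or above were tested (adjusted p = 0.0126).

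Il4ra, the alpha chain for IL-4 that also serves IL-13 in other cells, read -0.17, -0.06 and -0.08 in PBS cells and -0.23, -0.25 and -0.34 with IFN-4a alone. It read 0.22, 0.06 and 0.30 with anti-CD3 alone and 0.22, 0.08 and 0.21 with both, so that the stimulated groups overlapped each other and lay above both resting groups. Anti-CD3 raised it by 0.29 (0.14 to 0.44), or 1.23-fold, without IFN-4a (adjusted p = 0.00424) and by 0.44 (0.29 to 0.59), or 1.36-fold, with it (adjusted p = 0.00017). IFN-4a in resting cells gave -0.17 (-0.32 to -0.02), where the groups did not overlap and the adjusted p was 0.128. Il2ra and Il15ra are likewise neighbours, on chromosome 2, with no protein-coding gene starting between them.

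With all genes as background, 5 of the 6 measured members changed with anti-CD3, and fewer did with IFN-4a. With anti-CD3 alone 5 of 6 passed the test, 4 higher and 1 lower, where 31.8% of all genes passed, 13.8% higher and 18.0% lower. The median change over the members was 0.63 and over all genes -0.04. With anti-CD3 in the presence of IFN-4a 5 of 6 passed, 4 of them higher, where 27.7% of all genes passed, 12.8% higher and 14.9% lower, and the medians were 0.90 and -0.04. With both agents against PBS 5 of 6 passed, where 33.1% of all genes did, 14.1% higher and 19.0% lower. Anti-CD3 alone against IFN-4a alone also gave 5 of 6, where 31.2% of all genes passed, 14.7% higher and 16.5% lower. The 5 were Il2ra, Il4ra, Il7r, Il15ra and Il21r in each of these 4 comparisons. The 4 comparisons share arrays and are not separate evidence for one another. All 6 measured members were read at 8 or above, a level class described below. The class uses the 6 highest arrays of each row, so it is not independent of the anti-CD3 changes. When only the 6009 genes read so were tested, 4551 passed with anti-CD3 alone and 4426 with it in the presence of IFN-4a. There 4602 passed with both agents against PBS and 4546 with anti-CD3 alone against IFN-4a alone. These shares are higher than those over all genes, so 5 of 6 is not read as particular to the family. The split of all genes into higher and lower calls was not stable to scaling in anti-CD3 with IFN-4a (3073 higher and 2997 lower under quantile normalization, 2982 and 2973 with arrays centred on their median) and in anti-CD3 alone against IFN-4a alone (3616 and 3043, and 3462 and 3053), where higher calls then outnumbered lower ones.

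With IFN-4a in resting cells 3 of 6 members passed, Il2ra and Il15ra higher and Il21r lower. Of all genes 12.6% passed, 4.25% higher and 8.37% lower. When only the 6009 genes read at 8 or above were tested, 2322 passed, 643 higher and 1679 lower, a higher share. The median change was -0.04 over the members and -0.01 over all genes, while the median size of the change regardless of sign was 0.25 and 0.09. With IFN-4a in stimulated cells 0 of 6 passed by limma, and 1 of 6, Il15ra, passed at an unadjusted threshold of 0.05 (adjusted p = 0.153). There 3.48% of all genes passed, 2.02% higher and 1.46% lower, that is 447 and 324 genes. That split turned to 474 and 495 under quantile normalization, 650 and 752 with array weights and 413 and 588 among genes read at 8 or above, and stood at 398 and 119 without the third array of anti-CD3 alone. A change that passed in resting and not in stimulated cells is shown to differ between them only where the interaction passed, which held for 1 of 6 members, Il2ra. In the interaction 0.942% of all genes passed, 0.298% higher and 0.645% lower. The resting comparison and the anti-CD3 comparison without IFN-4a use the same PBS arrays.

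**Figure D2:**
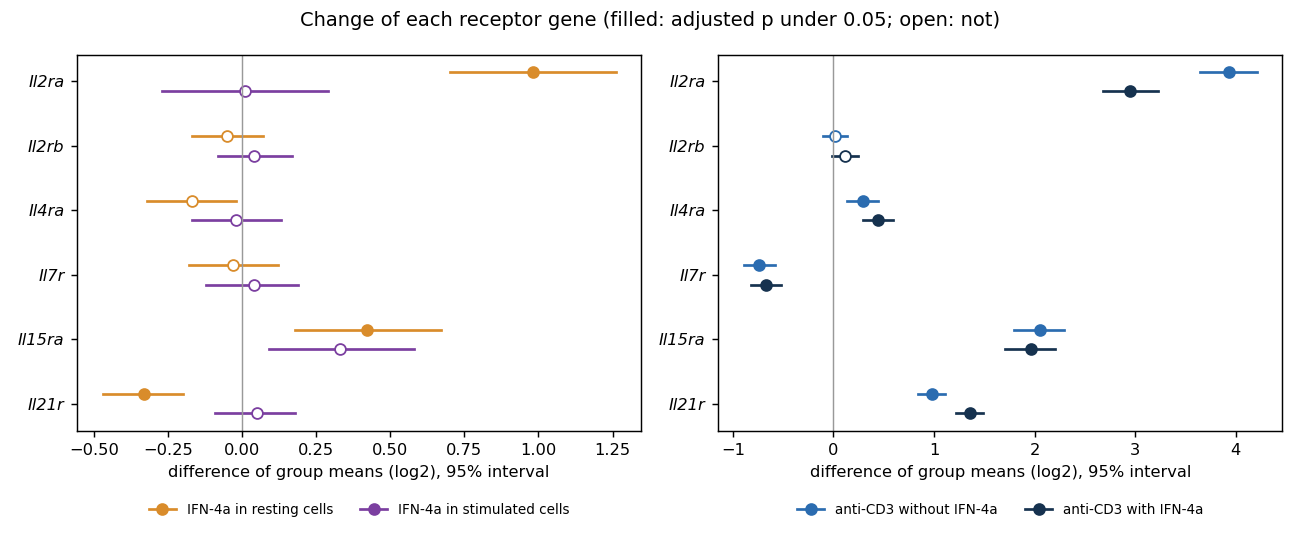
Change of each measured receptor gene in log2 units, with its 95% interval, for IFN-4a in resting and in stimulated cells and for anti-CD3 without and with IFN-4a. The IFN-4a change of Il2ra was 0.98 in resting cells and 0.01 in stimulated cells, and the Il7r changes with anti-CD3 were -0.74 and -0.67, below 0, while the other 4 members that passed with anti-CD3 lay above 0.

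**Figure D3:**
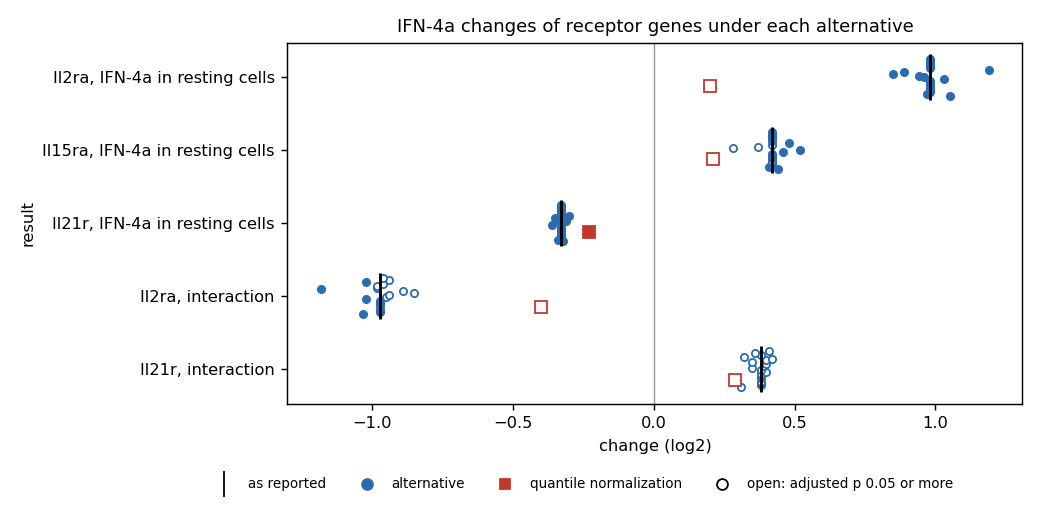
Log2 change of Il2ra, Il15ra and Il21r with IFN-4a in resting cells, and the interaction of Il2ra and Il21r, as reported (vertical bars) and under each alternative (points, with quantile normalization as squares; open symbols did not pass the test). The Il2ra change in resting cells ran from 0.20 under quantile normalization to 1.19 without the third array of IFN-4a alone, and the Il21r change in resting cells stayed between -0.36 and -0.23.

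The members also differed in how their arrays moved together over all 12 arrays, given as a description since the arrays share 4 groups. Il2ra and Il15ra had a Pearson r of 0.985, Il4ra and Il21r one of 0.917, and Il7r ran opposite to Il2ra at -0.957. Il2rb followed the others least, at 0.498 with Il2ra. Among the remaining genes, the closest to Il2ra were Rel, the NF-kappaB subunit c-Rel (0.997), Slamf7 (0.996) and Btla, an inhibitory receptor (0.996). The closest to Il15ra were the chaperone gene Hsp90aa1 (0.996), the tRNA synthetase gene Cars (0.995) and Tbx21, which encodes T-bet (0.993). Il7r ran with Calcoco1 (0.994), Cdk19 (0.991) and Crebrf (0.990), and Il21r with Naa25 (0.998), Gemin5 (0.996) and Qtrt2 (0.996). Il4ra ran with Gtf2e1 (0.964), Sil1 (0.964) and Wdr59 (0.959), and Il2rb less closely with Elp6 (0.90), Rps10 (0.890) and Mcm6 (0.879).

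A coarse reading of level was possible from the decimals. Numbers stored in single precision move in steps of 9.53674e-07 once they reach 8, and these steps remained after centring. By that reading all 6 measured members stood at 8 or above on at least 6 arrays, as did 6009 genes, or 27.1% of all tested. The 6 arrays used were those where a row was highest. A gene raised by a treatment could thus enter the class through the groups where it was high. Il2rb, Il4ra, Il7r and Il21r were on that step on all 12 arrays. Il2ra was off it on 2 arrays, the second and the third of PBS. Il15ra was off it on 4, the first and the third of PBS and the second and the third of IFN-4a alone. A value below 8 can also fall on the step, so being on it does not place a single array at 8 or above. Il15ra on the second PBS array was on it at -1.075, below those 2 arrays of IFN-4a alone (-0.852 and -0.962).

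The ligands were measured by 6 genes, and none was read at 8 or above. Il2, the main growth factor of activated T cells, rose with anti-CD3. It read -1.0, -1.19 and -1.08 in PBS cells, -1.24, -1.19 and -1.47 with IFN-4a alone, 1.0, 1.21 and 1.37 with anti-CD3 alone and 1.01, 1.33 and 1.63 with both. All stimulated arrays lay above all resting arrays, and the change was 2.28 without IFN-4a (adjusted p = 1.34e-08) and 2.62 with it (adjusted p = 3.51e-09). Il4 rose by 0.45 (adjusted p = 0.00248) and 0.40 (adjusted p = 0.00706) in the same comparisons. Il7, Il9, Il15 and Il21 passed in neither, with changes between -0.15 and 0.14. Il7 passed with anti-CD3 alone without the first PBS array (-0.18, adjusted p = 0.0225). Without the third array of IFN-4a alone Il9 passed with anti-CD3 in the presence of IFN-4a (-0.24, adjusted p = 0.0258) and with IFN-4a in resting cells (0.26, adjusted p = 0.0385, against 0.17 with all arrays). With IFN-4a 0 of 6 ligands passed in resting or in stimulated cells by limma, and at an unadjusted threshold of 0.05 3 of 6 did in resting cells (Il4, Il9 and Il15) and 0 of 6 in stimulated cells. In resting cells Il15 had a change of 0.24 (adjusted p = 0.0547) and passed without the first PBS array (0.31, adjusted p = 0.0241) or without the third array of anti-CD3 alone. The median ligand change with anti-CD3 alone was 0.05.

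Of 3 partner chains outside the members, Crlf2, a chain of the receptor for thymic stromal lymphopoietin, rose by 0.37 with anti-CD3 both without IFN-4a (adjusted p = 0.0258) and with it (adjusted p = 0.0297). Those calls ended without any one of 4 arrays in the comparison without IFN-4a (the first or second PBS array, or the second or the third of anti-CD3 alone; adjusted p up to 0.0881) and of 3 in the other (the first or the third of IFN-4a alone, or the second with both; up to 0.126). Without that second array the Crlf2 change with IFN-4a present was 0.20 (adjusted p = 0.105). Il9r, the IL-9 receptor chain, rose with IFN-4a in resting cells by 0.24 at an adjusted p of 0.047. That call ended without any one of 7 arrays, at adjusted p of up to 0.167 without the second array of IFN-4a alone (0.20). The others were the first of that group, the second and the third of PBS, the first and second of anti-CD3 alone and the third with both. The Il9r call also ended under quantile normalization (adjusted p = 0.066), with arrays centred on their median (0.0523) and with only the groups compared (0.0691). Il13ra1 passed in none of these comparisons, with changes between -0.06 and 0.02.

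The signal carriers moved in different directions with anti-CD3. Measured were 5 genes, and Jak3, the kinase bound by the common chain, had no row of 1 symbol and was not analysed here. Stat5a rose by 0.59 (adjusted p = 1.57e-06) while Stat5b, its close homologue, fell, with a change of -0.55 (adjusted p = 1.16e-05). Stat5a read -0.37, -0.38 and -0.38 in PBS cells and 0.19, 0.21 and 0.24 with anti-CD3 alone, and Stat5b 0.40, 0.26 and 0.35 against -0.21, -0.21 and -0.23. Jak1, the gene of the other receptor kinase, fell, with a change of -0.60 (adjusted p = 4.55e-06) without IFN-4a and -0.46 with it (adjusted p = 7.55e-05). Stat6 gave 0.02 in both. Stat3 rose with IFN-4a in resting cells by 0.36 (adjusted p = 0.000723) and with anti-CD3 alone by 0.59 (adjusted p = 1.33e-06). With both agents the values of Stat3 were 0.02, 0.14 and 0.09, against 0.15, 0.19 and 0.15 with anti-CD3 alone. Its interaction was -0.44 (adjusted p = 0.0144), a call that ended without the second array of anti-CD3 alone, or the first or the second of IFN-4a alone (adjusted p up to 0.0526). In all, 2 of 5 rose and 2 of 5 fell with anti-CD3 alone, where 13.8% of all genes rose and 18.0% fell. All 5 were read at 8 or above, and of the 6009 such genes 2195 rose and 2356 fell. Calls were thus about as common in the list as among such genes. With anti-CD3 in the presence of IFN-4a 1 rose and 2 fell, and 1 of 5 rose with IFN-4a in resting cells. Of all genes, 12.8% rose and 14.9% fell in the former, and 4.25% rose in the latter. Of the 6009 genes read at 8 or above, 2082 rose and 2344 fell in the former, and 643 rose in the latter.

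Feedback inhibitors rose with anti-CD3 alone in 5 of 7 cases, with a list median of 0.73, where 13.8% of all genes rose. Among the 6009 genes read at 8 or above, as 4 of the 7 were, 2195 rose. Cish, which blocks STAT5 docking and is induced by it, read -1.0, -0.98 and -1.21 in PBS cells, -0.49, -0.58 and -0.53 with IFN-4a alone, 0.47, 0.61 and 0.57 with anti-CD3 alone and 1.03, 1.25 and 1.03 with both. The 4 groups did not overlap. Its change was 1.61 with anti-CD3 alone (adjusted p = 1.71e-09), 0.53 with IFN-4a in resting cells (adjusted p = 0.000481) and 0.56 in stimulated cells (adjusted p = 0.000616). Cish has 2 rows that disagreed in resting cells, 1 at 0.81 and past the test and 1 at 0.24 (adjusted p = 0.174). Socs1, an inhibitor of JAK kinases, rose by 0.53 with IFN-4a in resting cells (adjusted p = 0.000461) and by 0.73 with anti-CD3 alone (adjusted p = 3.84e-06). The phosphatase genes Ptpn6 and Ptpn2 rose with anti-CD3 by 1.15 (adjusted p = 2.39e-09) and 0.50 (adjusted p = 0.000104), and the adaptor gene Sh2b3 by 0.75 (adjusted p = 3.21e-07). With IFN-4a in resting cells Sh2b3 fell, with a change of -0.29 (adjusted p = 0.00671). The resting-cell call of Sh2b3 ended under quantile normalization (-0.20, adjusted p = 0.0563). With anti-CD3 in the presence of IFN-4a 5 of 7 rose and 1 fell, where 12.8% of all genes rose and 14.9% fell. The 1 that fell was Socs3, at -0.29 (adjusted p = 0.0236). That call ended without the first array given both agents or the third of IFN-4a alone (-0.18, adjusted p = 0.109, and -0.24, adjusted p = 0.0988), and the 2 Socs3 rows gave -0.49 (adjusted p = 0.000975) and -0.08 (adjusted p = 0.651). Among the 5, Socs1 at 0.28 (adjusted p = 0.0137) lost its call without the second or the third array given both agents or the first of IFN-4a alone (adjusted p up to 0.0671). Socs2 and Socs3 gave -0.11 and -0.00 with anti-CD3 alone.

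**Figure D4:**
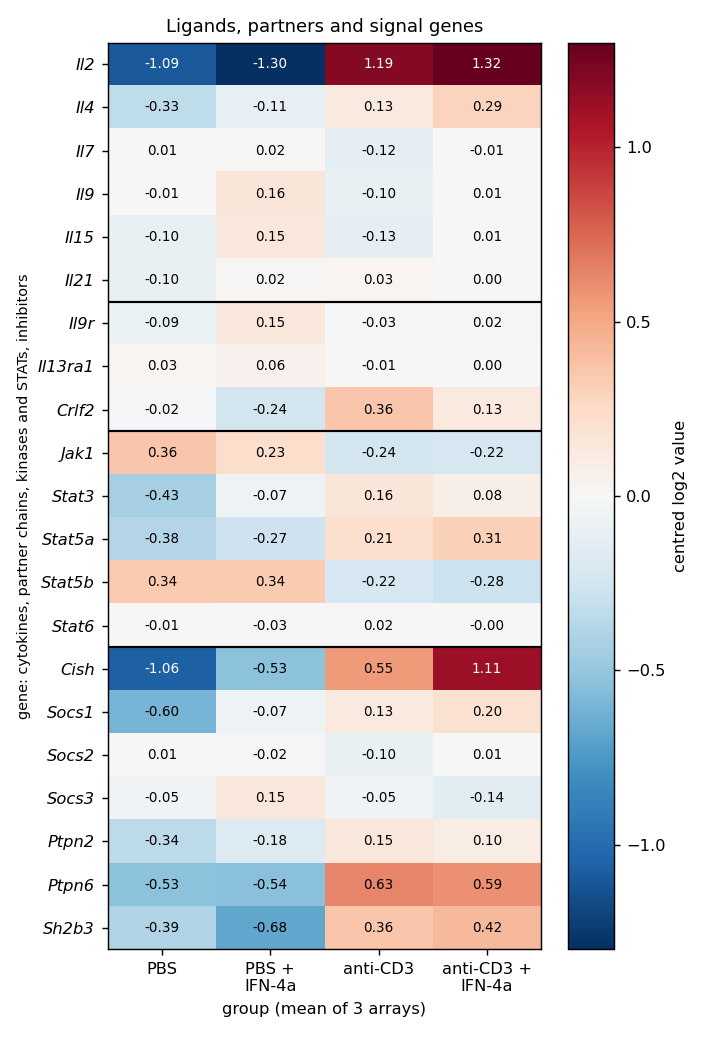
Group means of row-centred log2 values (mean of 3 arrays, printed in each cell and shown as colour) for the ligands, partner chains, kinases and STATs, and feedback inhibitors, in rows, by group, in columns. Il2 went from -1.09 in PBS cells to 1.19 with anti-CD3 alone and Cish from -1.06 to 0.55, while Stat5b went from 0.34 to -0.22.

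Genes known as targets of STAT5 gave 7 of 11 higher and 1 of 11 lower with anti-CD3 alone (median 0.57). Among the higher ones Bcl2 and Pim1 each have 2 rows that disagreed. Bcl2 gave 0.88 (adjusted p = 2.11e-05) and 0.26 (adjusted p = 0.142), and Pim1 0.25 (adjusted p = 0.00411) and 0.09 (adjusted p = 0.466). With IFN-4a in resting cells 2 of 11 were higher (median 0.15). The shares of all genes were 13.8% higher and 18.0% lower in the first comparison, and 4.25% higher in the second. Read at 8 or above were 5 of the 11, and of the 6009 such genes 2195 were higher with anti-CD3 alone. With anti-CD3 alone Lta, which encodes lymphotoxin alpha, rose by 2.79 (adjusted p = 1.12e-10), Myc by 2.75 (adjusted p = 1.31e-11), the cyclin gene Ccnd2 by 1.78 (adjusted p = 3.11e-11) and the kinase gene Pim2 by 1.27 (adjusted p = 5.45e-09). With IFN-4a in resting cells Pim2 rose by 1.83 (adjusted p = 2.85e-10) and Ccnd2 by 1.47 (adjusted p = 3.73e-10). Both had changes of 0.22 with IFN-4a in stimulated cells and interactions of -1.60 (adjusted p = 5.04e-07) and -1.25 (adjusted p = 8.88e-07). With anti-CD3 in the presence of IFN-4a 5 of 11 were higher and 2 lower, where 12.8% of all genes were higher and 14.9% lower. Bcl2, among the higher ones, had rows that disagreed here too, at 0.89 (adjusted p = 2.07e-05) and 0.30 (adjusted p = 0.0937). Pim2 was among the lower ones, at -0.33 (adjusted p = 0.00187). In stimulated cells Osm was the 1 gene of 11 that rose with IFN-4a, by 0.40 (adjusted p = 0.0139), a call that ended without the third array of either stimulated group (adjusted p up to 0.0736).

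Of the adaptors and the lipid kinase arm, 1 of 10 genes was higher and 6 of 10 lower with anti-CD3 alone (median -0.28). Over all genes 13.8% were higher and 18.0% lower. Among the 6009 genes read at 8 or above, as 7 of the 10 were, 2356 were lower. The lipid kinase subunit genes Pik3cd and Pik3r1 gave -0.76 (adjusted p = 1.87e-07) and -0.68 (adjusted p = 3.5e-06), the insulin receptor substrate gene Irs2 gave -0.74 (adjusted p = 2.64e-06), and the adaptor gene Shc1 gave -0.33 (adjusted p = 0.000932). With IFN-4a present, 5 of 10 were lower with anti-CD3 and 0 higher, where 14.9% of all genes were lower and 12.8% higher. With IFN-4a in resting cells 1 rose and 1 fell: Sos1, an exchange factor for Ras, rose by 0.58 (adjusted p = 4.79e-05) and Akt1 gave -0.34 (adjusted p = 0.00735). In stimulated cells Sos1 was the 1 of 10 that rose with IFN-4a, by 0.40 (adjusted p = 0.0022).

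Transcription factors known to act at receptor genes had 14 of 15 members measured (Nfkb1 was not). With anti-CD3 alone 8 were higher and 3 lower (median 0.28), where 13.8% of all genes were higher and 18.0% lower. All 14 were read at 8 or above, and of the 6009 such genes 2195 were higher and 2356 lower in that comparison. Calls were thus about as common in the list as among such genes. Tbx21, which encodes T-bet, a factor that drives Il2rb, rose by 2.08 (adjusted p = 1.88e-09), Rel by 1.71 (adjusted p = 8.81e-11), Gfi1, a repressor of Il7r, by 1.70 (adjusted p = 3.06e-09), and Eomes by 1.59 (adjusted p = 5.13e-09). With IFN-4a present, 7 were higher and 3 lower with anti-CD3, where 12.8% of all genes were higher and 14.9% lower. With IFN-4a in resting cells 2 rose and 2 fell. Rel rose by 0.54 (adjusted p = 5.17e-05) and Tbx21 by 0.40 (adjusted p = 0.02), while Klf2 gave -0.37 (adjusted p = 0.00848) and Runx1 -0.23 (adjusted p = 0.0434). The Tbx21 call ended without the second or the third array of IFN-4a alone (adjusted p up to 0.0695) and under quantile normalization (0.20, adjusted p = 0.0996). The Runx1 call ended without any one of 8 arrays, the second and the third of PBS, the first and second of IFN-4a alone, the first and second of anti-CD3 alone, and the first and the third with both (adjusted p up to 0.178). It ended too under quantile normalization (-0.18, adjusted p = 0.0973) and when the fit held just the 6 arrays of those groups (adjusted p = 0.0992). In stimulated cells IFN-4a raised Tbx21 by 0.52 (adjusted p = 0.00945) and Eomes by 0.46 (adjusted p = 0.00719). The Rel interaction was -0.53 (adjusted p = 0.00656), and -0.34 under quantile normalization (adjusted p = 0.0948).

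Markers of CD8 T cells and of other cells were read by the same coarse level class. All 5 CD8 T cell markers, Cd8a, Cd8b1, Cd3d, Cd3e and Cd3g, were read at 8 or above. None of 6 measured B cell, 9 myeloid and dendritic, 6 granulocyte, and 3 erythroid and platelet markers was. This reading sets different probes against 1 coarse level and does not show that a marker was absent, since Mx1, Il2 and Cish, which changed with treatment, were not read at 8 or above either. Ikzf2 was the 1 of 5 CD4 and regulatory T cell markers that was, and Klrd1, which CD8 T cells can also carry, the 1 of 5 NK cell markers. These lists also moved with anti-CD3. With anti-CD3 alone 18.0% of all genes fell and 13.8% rose, and of the 6009 genes read at 8 or above 2356 fell and 2195 rose. Without IFN-4a 3 of 5 CD8 T cell markers fell (Cd3d at -0.64, Cd8b1 at -0.34 and Cd3g at -0.26), and the mean of this list ran from 0.09 to 0.12 over the PBS arrays and from -0.16 to -0.09 with anti-CD3 alone. Of the NK cell markers 3 of 5 fell, Klrd1 at -1.06, Klre1 at -0.25 and Klrk1 at -0.37, while Ncr1 (-0.03) and Klrb1c (-0.02) did not pass, and that list's mean ran from 0.17 to 0.23 in PBS cells and from -0.18 to -0.11 with anti-CD3 alone. The list means of CD4 and regulatory T cell markers ran from -0.12 to -0.07 in PBS cells and from -0.01 to 0.06 with IFN-4a alone, where 0 of 5 genes passed by limma. At an unadjusted threshold of 0.05 1 of 5, Foxp3 (0.23, adjusted p = 0.0781), passed with IFN-4a in resting cells. With anti-CD3 alone 1 of these 5 rose (Cd40lg, also induced on activated T cells, 1.04) and 1 fell (Ikzf2, -0.45). Of the other lists 1 of 6 B cell markers fell (Cd79b, -0.69), 1 of 9 myeloid and dendritic markers rose (Itgax, 0.56), 1 of 6 granulocyte markers fell (Elane, -0.24) and 1 of 3 erythroid and platelet markers fell (Itga2b, -0.23), and with IFN-4a in resting cells none of these 4 lists had a gene past the adjusted threshold. With IFN-4a in resting cells 1 of 5 CD8 T cell markers fell, Cd3d at -0.24 (adjusted p = 0.0102), and 1 of 5 NK cell markers, Klrd1 at -0.30 (adjusted p = 0.0156), beside the calls of Il2ra, Il15ra and Il21r. In stimulated cells Klrd1 fell with IFN-4a as well, at -0.32 (adjusted p = 0.0287). The part of these lists in the member changes was not tested.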

How the data were processed

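RNA of 12 samples was measured on 1-colour Affymetrix arrays. Per the labels, total RNA came from an RNeasy kit and was biotin-labelled with a WT Plus kit. The deposited values are log2 values (base assumed), which the authors had centred row by row on the median over the 12 arrays (largest absolute row median 5e-07). Sources used here do not state the background correction, normalization between arrays, probe summarization or software, and background and signal cannot be recomputed from centred values.

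The platform's probe table gave 1 symbol to 23521 of 33793 rows, several to 1814 and none to 8458. Rows of 1 gene were averaged (1082 genes had several), and 22180 genes were fitted in limma 3.58.1 (R 4.3.3) with 4 group means over all 12 arrays, 8 residual and 5.178 prior degrees of freedom, and Benjamini-Hochberg adjustment over all genes. A call was an adjusted p below 0.05. The script was tested on simulated data. The number of arrays limits the precision.

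Named genes were all 7 receptor genes, every measured ligand, partner chain, kinase, STAT and feedback inhibitor, the up to 4 largest called changes of the other pathway lists, 2 check genes, and the 3 genes with the highest Pearson r for each member, other than members, predicted genes, small RNAs, and receptor or immunoglobulin segments. Marker genes outside this rule were named after their values were seen, where a count is given. Bcl2 and Pim1 were also named after their values were seen, since their rows disagreed. The members and lists were chosen with earlier results of these data known. No list was tested as a set.

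Alternatives were quantile normalization of the row-centred values, array medians, the row with the highest mean, every row as its own feature, array weights and a robust variance prior. Others were genes read at 8 or above only, the replicate number as a block, only the groups compared, and each array left out in turn.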

Additional observations from a re-analysis of the deposited data

Results flagged for a closer look

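The response of Il2ra to IFN-4a differed between stimulated and resting cells by a test of the difference itself. The interaction was -0.97 on the log2 scale (SE 0.18, 95% interval -1.37 to -0.58, limma adjusted p = 0.0213, n = 3 arrays in each of 4 groups), from an IFN-4a change of 0.98 in resting cells and of 0.01 in stimulated cells. Over the alternatives it ran from -1.18 to -0.40 and was called in 10 of 20 of them.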

How the results depend on the processing

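The calls of Il2ra, Il4ra, Il7r, Il15ra and Il21r held in all 21 alternatives run for each of the 4 comparisons of stimulated with resting cells, and the Il21r call with IFN-4a in resting cells did too (-0.36 to -0.23). The number of members called with IFN-4a in resting cells was 3, and 1 under quantile normalization. The number called in the interaction was 1, against 0 under quantile normalization, 2 when only genes read at 8 or above were tested, and 0 to 1 when each array was left out. Il15ra with IFN-4a in resting cells also lost its call when only the groups compared were fitted (adjusted p = 0.0536). Ifit1 with anti-CD3 alone reversed under quantile normalization, from 0.91 to -0.21 (adjusted p = 0.0759). The cause was not tested.

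Over all genes, the count with IFN-4a in resting cells was 2798, and 1753 without the second array of IFN-4a alone. The count with IFN-4a in stimulated cells was 771, against 1402 with array weights, 498 without the third array given both agents and 489 without the second array of anti-CD3 alone. With the 6009 genes read at 8 or above only, 4551 in place of 7048 passed with anti-CD3 alone. With both agents against PBS 4602 passed in place of 7332, and 4546 in place of 6916 with anti-CD3 alone against IFN-4a alone. Fewer genes were tested, and the share of tested genes that passed was higher in each of these comparisons. The interaction count was 209, against 123 under quantile normalization, 400 with genes at 8 or above only (202 higher and 198 lower, against 66 and 143), and 137 without the second array of IFN-4a alone.

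With the replicate block 3 members were called with IFN-4a in resting cells, 0 in stimulated cells and 5 with anti-CD3 alone, as without it. The replicate numbers were not taken to pair the samples, since the labels name no animal, day or batch that would pair them. Of same-number pairs 6 of 18 correlated above 0.1, against 5 of 36 pairs with other numbers. An array's own number was the best match in 20 of 36 checks. Both counts are a hint of pairing from the data and not from the design. A variance trend over level was not run, because the decimals give a level class and no level. Centred values allow neither another background correction nor a reading of signal over background.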
